A study of Mus musculus with 2 samples.

Results

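Cochlear macrophages were studied in dissociated cochlear tissue of adult CBA/CaJ mice by droplet single-cell RNA sequencing, in which each captured mRNA molecule is counted once by its UMI (unique molecular identifier). They were selected on transcripts: a cell was a member if it passed the filter on cell quality (300 or more genes and no more than 20% of UMIs from mitochondrial genes) and held at least 1 UMI of at least 3 of the 7 marker genes C1qa, C1qb, C1qc, Csf1r, Cx3cr1, Mrc1 and Adgre1. By this rule 963 of 22672 kept cells were members in the AAV-Isl1 plus noise library and 581 of 19953 in the noise-only library, 1544 of 42625 in all. AAV-Isl1 plus noise is tissue of ears given an adeno-associated virus (AAV) with the transcription factor gene Isl1 before noise. The noise-only group is the untreated opposite ear of the same animals. All mice were wild type, were 4 to 6 weeks old, and heard noise of 105 dB between 1 and 20 kHz for 2 h, and tissue labelled sensory epithelium was taken 2 days later. Ears of 5 mice were pooled into 1 library per group, and cells were freed with trypsin for 15 min. No ear with an AAV that lacks Isl1 is among the samples, so effects of Isl1, of the virus and of its delivery cannot be told apart. With 1 library per group no test between groups was possible. Every interval given is a 95% interval that covers counting error only, and no spread between animals is known.

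Macrophages are resident immune cells of the cochlea, found in the spiral ligament, the stria vascularis, the ganglion and along the nerve fibres, and they are joined by blood monocytes after noise. They clear debris and can present peptides to T cells: MHC class II molecules display peptides from engulfed material to helper T cells, and MHC class I molecules display peptides made inside the cell to cytotoxic T cells. Transcription of MHC class II genes is governed by the coactivator encoded by Ciita, which interferon gamma induces.

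Of the 9 MHC class II genes with a RefSeq promoter entry, H2-Aa and H2-Eb1 had the highest ratios between the libraries, as the values further on show, so their promoters are shown. H2-Ab1, Ciita and Cd74 had no promoter entry and were not searched for motifs. H2-Ab1, H2-Aa and H2-Eb1 lie close together on mouse chromosome 17 (GENCODE vM21, GRCm38). H2-Ab1 spans chr17:34257689-34269419 on the plus strand, H2-Aa chr17:34282744-34287823 on the minus strand and H2-Eb1 chr17:34305867-34316674 on the plus strand. The sequences are RefSeq promoters of build GRCm38.p6, written 5′ to 3′ on the strand of the gene, from 250 bases before to 50 after the start. Capitals mark the Y box, CTGATTGG on either strand, part of the promoter module of MHC class II genes that nuclear factor Y binds. The H2-Aa window is chr17:34287774-34288073 on the minus strand and the H2-Eb1 window chr17:34305617-34305916 on the plus strand.
H2-Aa: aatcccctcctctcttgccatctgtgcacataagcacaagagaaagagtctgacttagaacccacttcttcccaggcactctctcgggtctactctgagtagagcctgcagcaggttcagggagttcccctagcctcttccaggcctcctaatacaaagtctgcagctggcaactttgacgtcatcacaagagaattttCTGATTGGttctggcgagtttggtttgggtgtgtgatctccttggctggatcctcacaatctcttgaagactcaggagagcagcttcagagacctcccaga
H2-Eb1: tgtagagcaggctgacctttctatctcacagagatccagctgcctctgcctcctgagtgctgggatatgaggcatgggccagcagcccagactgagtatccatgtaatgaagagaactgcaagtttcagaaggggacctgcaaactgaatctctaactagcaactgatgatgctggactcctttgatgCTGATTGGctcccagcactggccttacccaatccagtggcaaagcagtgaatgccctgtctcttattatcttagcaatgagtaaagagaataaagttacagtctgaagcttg
The Y box began 51 bases before the start of H2-Aa and 62 bases before that of H2-Eb1. It was found in the promoters of 4 of the 9 matched MHC class II genes (H2-Aa, H2-Eb1, H2-Eb2 and H2-Oa), in those of 8 of the 20 matched MHC class I genes (H2-K1, H2-D1 and Tap1 among them), in 2 of 34 interferon response genes and in 4.10% of all 32851 promoters. The promoters of B2m (chr2:122147437-122147736, plus strand) and Gbp2 (chr3:142620413-142620712, plus strand), an MHC class I subunit and an interferon-induced GTPase, are shown for the interferon-stimulated response element (ISRE), searched as GAAANNGAAA on either strand and put in capitals.
B2m: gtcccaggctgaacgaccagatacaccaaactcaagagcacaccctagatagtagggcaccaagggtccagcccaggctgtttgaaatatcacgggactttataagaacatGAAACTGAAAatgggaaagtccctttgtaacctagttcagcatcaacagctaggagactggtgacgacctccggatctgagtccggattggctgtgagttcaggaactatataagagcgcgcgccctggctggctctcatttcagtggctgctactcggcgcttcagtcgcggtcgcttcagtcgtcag
Gbp2: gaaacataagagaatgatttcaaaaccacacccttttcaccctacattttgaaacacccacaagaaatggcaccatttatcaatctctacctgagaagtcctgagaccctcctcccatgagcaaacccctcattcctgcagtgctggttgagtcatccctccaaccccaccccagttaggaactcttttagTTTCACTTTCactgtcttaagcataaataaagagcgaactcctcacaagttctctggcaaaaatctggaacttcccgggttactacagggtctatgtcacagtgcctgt
The ISRE was present in 21 of 34 matched interferon response genes, 5 of 20 matched MHC class I genes, 0 of 9 matched MHC class II genes and 3.44% of all promoters. For both motifs the list counts are of genes with a match in any of their promoters, while the share over all is of single promoters. The 2 are therefore not in the same unit. A match describes the letters in the window and is not a measured binding site.

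The members carried macrophage RNA beyond the 7 genes that chose them. Of 20 macrophage identity genes outside the rule, such as Tyrobp, Fcer1g, Ctss and Lyz2, all 20 had more CPM (UMIs per 1000000 UMIs) in members than in the other kept cells, by a median of 23.4-fold (3.92 to 103) in AAV-Isl1 plus noise and 106-fold (4.92 to 257) in noise only. Because the rule chose these cells, this describes the label and was given no test. The lower folds in AAV-Isl1 plus noise go with higher levels of such genes among its other cells. Lyz2, for lysozyme, stood at 324 CPM in the other cells of AAV-Isl1 plus noise and 41.7 CPM in those of noise only. At the edge of the rule, cells with 3 markers (211 in AAV-Isl1 plus noise and 97 in noise only) had 9191 and 7826 CPM of the 20 identity genes together, and cells with 2 markers, just outside it (246 and 105), had 5222 and 4274 CPM. Cells with none had 845 and 327 CPM.

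The libraries held 40268563 UMIs in 24209 barcodes (AAV-Isl1 plus noise) and 38330528 UMIs in 21068 barcodes (noise only), 15.1 and 13.2 times the about 1600 cells loaded, so not every barcode need be a whole cell. They shared 145 barcodes, of which 7 and 4 were members, and no barcode was a member in both. Members had a median of 1516 UMIs in AAV-Isl1 plus noise and 2020 in noise only (range 503 to 13205 and 509 to 13188), against 1102 and 1094 among all kept cells. All members together held 1918378 UMIs in AAV-Isl1 plus noise and 1444661 in noise only, so a gene with equal UMIs in both has a CPM ratio below 1. Many members also carried markers of another cell type: 452 of 963 (46.9%) and 243 of 581 (41.8%) held at least 3 markers of 1 of the 16 other classes, most often the 10 of Schwann or satellite glia (334 and 198 members). Erythroid markers summed to 16616 CPM in AAV-Isl1 plus noise members and 671 CPM in noise-only members, a ratio of 24.8, with only 1 marker (Car1) at 0 in AAV-Isl1 plus noise and 4 in noise only, and 37 and 2 members held 3 of them. Neutrophil markers summed to 3248 and 1261 CPM (ratio 2.58), with none and 2 (Mmp8 and Cxcr2) of 10 at 0, and 11 and 1 members held 3 of them. Their part in the ratios between libraries was not tested. Values without the members that hold 3 markers of another class are given for some genes and lists only. Of 112 values of named genes under this removal, 68 stayed within the interval of the value over all members. Another 36 left it on the same side of 1 or from an interval that holds 1, and 8 changed direction. Of 15 further summed lists 3 stayed within, 11 left it and 1 changed direction.

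Macrophages made up a larger share of the AAV-Isl1 plus noise library. The share was 4.25% (3.99 to 4.52) of kept cells in AAV-Isl1 plus noise and 2.91% (2.68 to 3.16) in noise only, a ratio of 1.46 (1.32 to 1.62). With every cell reduced to 1000 UMIs and shallower cells left out, 638 of 12646 (5.05%) and 425 of 10869 (3.91%) cells were members, a ratio of 1.29 (1.14 to 1.46). The larger share was not particular to macrophages. Among kept cells that were not members, those with at least 3 neutrophil markers numbered 580 in AAV-Isl1 plus noise and 23 in noise only. For T or NK cell markers the counts were 327 and 80, for B lineage markers 235 and 60, and for endothelial markers 1639 and 1523. Shares depend on how well each cell type survived dissociation, and more macrophages and fewer other cells cannot be told apart.

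Of the 22 gene lists, MHC class II had the highest summed ratio in members. The 12 genes of the list summed to 17000 UMIs or 8862 CPM in AAV-Isl1 plus noise and 4261 UMIs or 2949 CPM in noise only, a ratio of 3.0 (2.91 to 3.11). Of its 8 genes with at least 50 UMIs, 7 were at least 1.5-fold higher in AAV-Isl1 plus noise and 0 were at least 1.5-fold lower. Of all 7371 genes with 50 UMIs in members, 8.8% were at least 1.5-fold higher in AAV-Isl1 plus noise and 3.53% at least 1.5-fold lower. The median log2 ratio was 1.52 over the 11 class II genes with 20 UMIs, beside 0.03 over all 10502 such genes. The list was drawn up with earlier results of these data known, so its count is a description.

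Apart from Ciita, which had few UMIs, the highest ratios of the list were those of 3 peptide-binding chains. H2-Aa, the alpha chain of the I-A molecule, had 3027 UMIs or 1578 CPM in AAV-Isl1 plus noise and 556 UMIs or 385 CPM in noise only (ratio 4.10, 3.74 to 4.50). H2-Ab1, its beta chain, had 1522 CPM and 357 CPM (4.26, 3.88 to 4.69), and H2-Eb1, the beta chain of I-E, had 1449 CPM and 330 CPM (4.40, 3.99 to 4.86). The 3 ratios had overlapping intervals. Cd74, the invariant chain that guards the peptide groove, was the most abundant class II gene, with 3492 CPM in AAV-Isl1 plus noise and 1222 CPM in noise only (2.86, 2.71 to 3.01). H2-DMa and H2-DMb1, which load peptides, had smaller ratios of 2.38 (260 and 109 CPM) and 2.35 (133 and 56.8 CPM). Ciita, the class II coactivator, had few UMIs, 66 in AAV-Isl1 plus noise and 9 in noise only, and a ratio of 5.52 (2.74 to 12.6). Ifi30, a lysosomal thiol reductase, went the other way with 365 CPM in AAV-Isl1 plus noise and 468 CPM in noise only (0.780, 0.701 to 0.868). H2-Oa (20 and 5 UMIs), H2-Ob (17 and 10) and H2-DMb2 (17 and 8) were too sparse to place, and H2-Eb2 had 0 UMIs in both libraries.

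**Figure D1:**
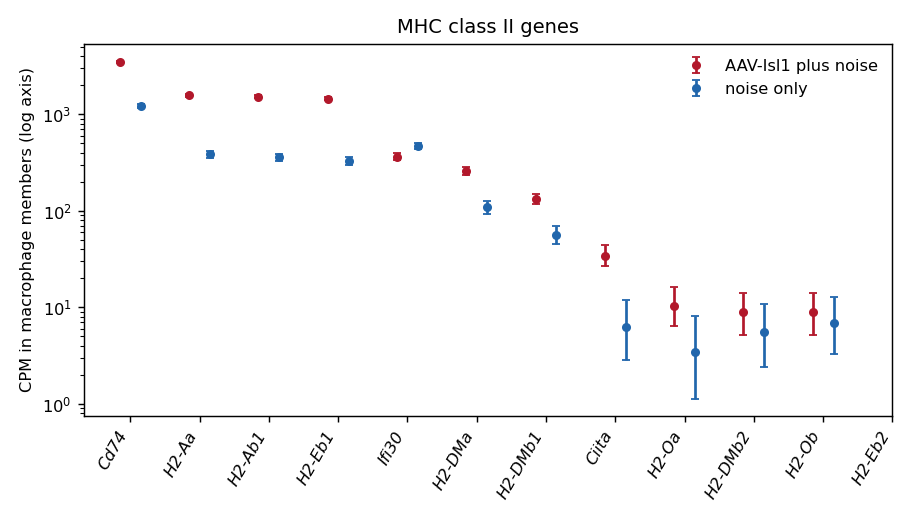
CPM of the MHC class II genes in macrophage members on a log axis, AAV-Isl1 plus noise in red to the left and noise only in blue, with bars for exact Poisson 95% intervals. Cd74, H2-Aa, H2-Ab1, H2-Eb1, H2-DMa, H2-DMb1 and Ciita lie higher in AAV-Isl1 plus noise and Ifi30 lower, while H2-Eb2 has no UMI in either library and no point.

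The difference was spread over many cells. Among members reduced to 1000 UMIs (765 in AAV-Isl1 plus noise and 481 in noise only), the median member held 4 class II UMIs in AAV-Isl1 plus noise and 1 in noise only, the upper quartile was 17 and 3, and the 90th percentile was 32 and 9. At least 5 class II UMIs were found in 366 members (47.8%, 44.3 to 51.5) of AAV-Isl1 plus noise and 87 (18.1%, 14.8 to 21.8) of noise only, and at least 20 in 162 (21.2%) and 26 (5.41%). The lower quartile was 1 and 0 UMIs, so many members of both libraries held next to none. Without thinning, the 5 members with the most class II UMIs held 3.49% of them in AAV-Isl1 plus noise and 9.86% in noise only, and the 96 and 58 highest members held 40.7% and 60.6%. So in noise only the class II RNA sat in fewer members.

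**Figure D2:**
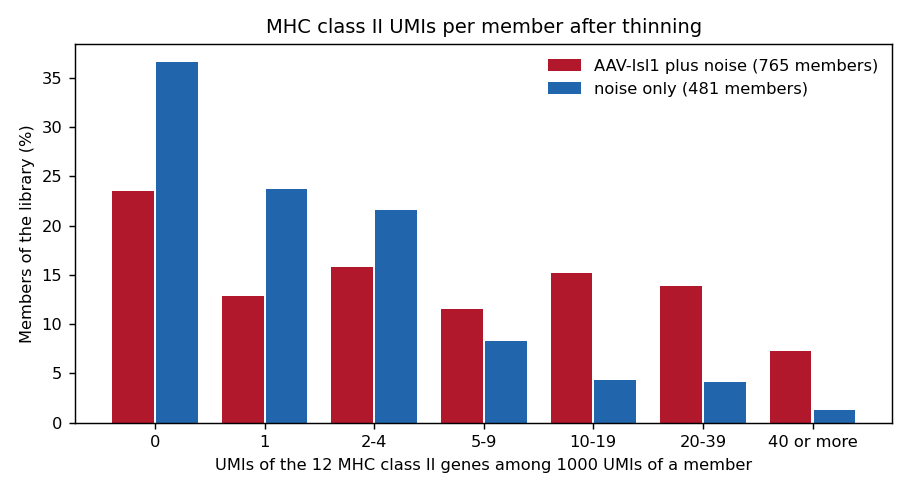
Share of members, in percent of the library's members with at least 1000 UMIs, by their number of MHC class II UMIs after thinning to 1000, AAV-Isl1 plus noise in red and noise only in blue. At 20 or more UMIs lie 21.2% of AAV-Isl1 plus noise members and 5.41% of noise-only members.

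H2-Aa was detected in 350 of 765 thinned members (45.8%) of AAV-Isl1 plus noise and 66 of 481 (13.7%) of noise only. Glia-marked cells, which should lack it and had medians of 1100 and 881 UMIs against 1516 and 2020 in members, held an H2-Aa UMI in 1.62% and 0.348% of thinned cells. The members lay far above these cells in both libraries. Glia-marked cells were chosen to hold no rule marker, which leaves out glia with stray RNA of those genes. Their shares, here and further on, may therefore understate the background. The ratio of class II RNA was itself 2.51 (2.34 to 2.70) in glia-marked cells, at 175 CPM in AAV-Isl1 plus noise and 69.8 CPM in noise only, and 2.34 (2.27 to 2.41) over all other kept cells. Whether RNA freed from macrophages gives those values was not tested. Endothelial-marked cells (1.60, 1.45 to 1.77) and T or NK cell-marked cells (2.54, 1.16 to 6.57, 63 and 7 UMIs) were on the same side. For neutrophil-marked cells (1.35, 0.699 to 2.995) the interval held 1. B lineage-marked cells, which make class II themselves, went the other way with 4407 CPM in AAV-Isl1 plus noise and 7233 CPM in noise only (0.609, 0.558 to 0.666). They numbered 235 and 60, and whether their make-up differs between the libraries was not tested. In each library 0 members held 3 of the 10 dendritic cell markers, which summed to 129 CPM in AAV-Isl1 plus noise and 171 CPM in noise only, with Clec9a at 0 in both and Xcr1 at 0 in noise only. In the other kept cells these markers summed to less, 47.4 and 38.3 CPM. They include Siglech, which is also counted among the microglia genes below, so the sum is not particular to dendritic cells. The class II ratio stood between 2.24 and 3.91 in members grouped by 3, 4, 5, 6 or 7 rule markers.

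MHC class I and its peptide supply differed less. The 23 genes summed to 5751 CPM in AAV-Isl1 plus noise and 4232 CPM in noise only, a ratio of 1.36 (1.32 to 1.40). Of 18 genes with 50 UMIs, 8 were at least 1.5-fold higher and 0 at least 1.5-fold lower, beside 8.8% and 3.53% of all 7371 genes. H2-K1, a classical heavy chain, had 950 CPM in AAV-Isl1 plus noise and 438 CPM in noise only (2.17, 1.98 to 2.38), and H2-D1 had 1144 and 745 CPM (1.54, 1.43 to 1.65). B2m, the shared light chain shown with its ISRE, had 1326 and 1029 CPM (1.29, 1.21 to 1.38). Immunoproteasome subunits Psmb8, Psmb9 and Psmb10 had ratios of 1.35, 1.78 and 1.53, and the peptide transporter subunit Tap1 had 1.69, while Tap2 stood at 0.916 and Tapbp, for tapasin, at 0.872. The chaperones Calr, Canx and Pdia3, which serve other proteins too, had ratios of 0.994, 0.910 and 0.861. Costimulatory genes, whose products T cells need besides the peptide, lay near or below 1 where they were abundant: Cd86 had 80.8 CPM in AAV-Isl1 plus noise and 86.5 CPM in noise only (0.934, 0.733 to 1.19), and Cd83 had 521 and 649 CPM (0.802). Cd274, which encodes the inhibitory ligand PD-L1, had 33 and 15 UMIs (1.66, 0.875 to 3.28), and its log2 ratio of 0.73 became 1.64 without the 5 members of each library with the most Cd274 UMIs. The class I difference was not confined to members. In the other kept cells the class I list had a ratio of 1.22 (1.20 to 1.23), with H2-K1 at 1.64, H2-D1 at 1.49 and B2m at 1.38. Glia-marked cells had 1.26 for the list, and endothelial-marked cells went the other way with 0.957.

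Interferon response genes differed little in their summed level. The summed level of the 42 genes in the matrix was 7465 CPM in AAV-Isl1 plus noise and 7137 CPM in noise only (1.05, 1.02 to 1.07). Ifi27l2a and Ifitm3 held 5620 and 2540 of its 14321 UMIs in AAV-Isl1 plus noise. Of 39 genes with 50 UMIs, 10 were at least 1.5-fold higher and 1 at least 1.5-fold lower, beside 8.8% and 3.53% of all 7371 genes. The GTPase genes Gbp2, Gbp3 and Gbp7 had ratios of 2.38, 1.79 and 1.85, and Iigp1 and Gbp4, further GTPase genes outside the list, had 4.30 (177 and 31 UMIs) and 5.27 (56 and 8 UMIs). By contrast Ifi27l2a (2930 and 2867 CPM, ratio 1.02), Ifitm3 (0.962) and Irf7 (0.990) differed little. Cxcl9, a T cell attractant, had 125 UMIs in 20 members of AAV-Isl1 plus noise and 3 UMIs in 2 members of noise only (31.4, 10.5 to 154), with 30 of the 125 in 1 cell. Rsad2, an antiviral enzyme, had 48 and 67 UMIs, 24 of the 67 in 1 noise-only cell (0.540). Ifng itself had 1 UMI in members of each library and 47 and 2 UMIs in other kept cells, of which 29 and 1 lay in T or NK cell-marked cells. Of Ifnb1 there was no UMI.

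Chemokines, which guide leukocytes, went in both directions. Summed over 20 genes they were lower in AAV-Isl1 plus noise, at 15605 CPM against 22347 CPM in noise only (0.698, 0.687 to 0.709). Of 19 genes with 50 UMIs, 4 were at least 1.5-fold higher and 5 at least 1.5-fold lower, beside 8.8% and 3.53% of all 7371 genes. Cxcl13, a B cell attractant, had 411 UMIs in 56 AAV-Isl1 plus noise members and 0 in noise-only members. Against a limit of 3 UMIs for the noise-only library, Cxcl13 was at least 103-fold higher in AAV-Isl1 plus noise. Ccl8, a monocyte attractant, had 1263 UMIs in 100 members of AAV-Isl1 plus noise and 82 UMIs in 33 members of noise only (11.6, 9.27 to 14.7), with 197 of the 1263 in 1 cell and 537 in 5. In the other kept cells Cxcl13 had a ratio of 1.21 (0.851 to 1.73) and Ccl8 1.45 (1.13 to 1.88). Of the AAV-Isl1 plus noise members, 23 held both, which is 41.1% of those with Cxcl13 and 23% of those with Ccl8. The 56 members with Cxcl13 had 12543 CPM of MHC class II genes and a median of 2575 UMIs, against 8466 CPM and 1446 UMIs in the 830 with neither chemokine. In noise only, the 33 members with Ccl8 had 1389 CPM of class II genes, below the 3080 CPM of the 548 without it.

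The chemokine genes with the most UMIs lay below 1, unlike Ccl8. Cxcl2, a neutrophil attractant and the most abundant, had 10753 UMIs or 5605 CPM in AAV-Isl1 plus noise and 13546 UMIs or 9377 CPM in noise only (0.598, 0.583 to 0.613). Cxcl1 had 450 and 1054 CPM (0.427, 0.392 to 0.464), Ccl3 had 897 and 1535 CPM (0.584) and Ccl4 had 2808 and 4153 CPM (0.676). Ccl2, the main ligand of Ccr2, had 1450 and 1811 CPM (0.801). Cxcl2 was detected in similar shares of members, 68.1% of thinned members of AAV-Isl1 plus noise and 67.4% of noise-only ones, beside 1.69% and 0.579% of glia-marked cells. All 3 of Cxcl2, Ccl3 and Ccl4 were found together in 27.3% (24.2 to 30.6) and 32.0% (27.9 to 36.4) of members, beside 0.0965% and 0.0290% of glia-marked cells. In the other kept cells Cxcl2 had a ratio of 5.28 (4.87 to 5.73), the opposite side of 1. Those cells included 580 (AAV-Isl1 plus noise) and 23 (noise only) neutrophil-marked cells. They also included 922 and 458 cells with 1 rule marker and 246 and 105 cells with 2. The part of this make-up in that ratio was not tested. In members, inflammatory cytokine and NF-kB genes were on the same side as these chemokines. Their sum was 4896 CPM in AAV-Isl1 plus noise and 6564 CPM in noise only (0.746, 0.725 to 0.768). Of 16 measured genes 0 were at least 1.5-fold higher and 3 at least 1.5-fold lower, beside 8.8% and 3.53% of all 7371 genes, and all 16 were below 1. Il1a had 169 and 320 CPM (0.530), Tnf 79.8 and 129 CPM (0.616), and Nfkbia, the NF-kB inhibitor, 859 and 1239 CPM (0.693). Il1b, with 1146 and 1206 CPM, stayed close to 1 (0.95, 0.892 to 1.01). The inflammatory list was also below 1 in the other kept cells (0.832, 0.819 to 0.845). Among these it stood at 0.904 in glia-marked, 0.777 in endothelial-marked and 0.670 in B lineage-marked cells. T or NK cell-marked (1.53) and neutrophil-marked cells (1.22, 0.984 to 1.54) went the other way. Immediate early and handling genes had summed ratios of 0.859 in members and 0.780 in the other kept cells.

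**Figure D3:**
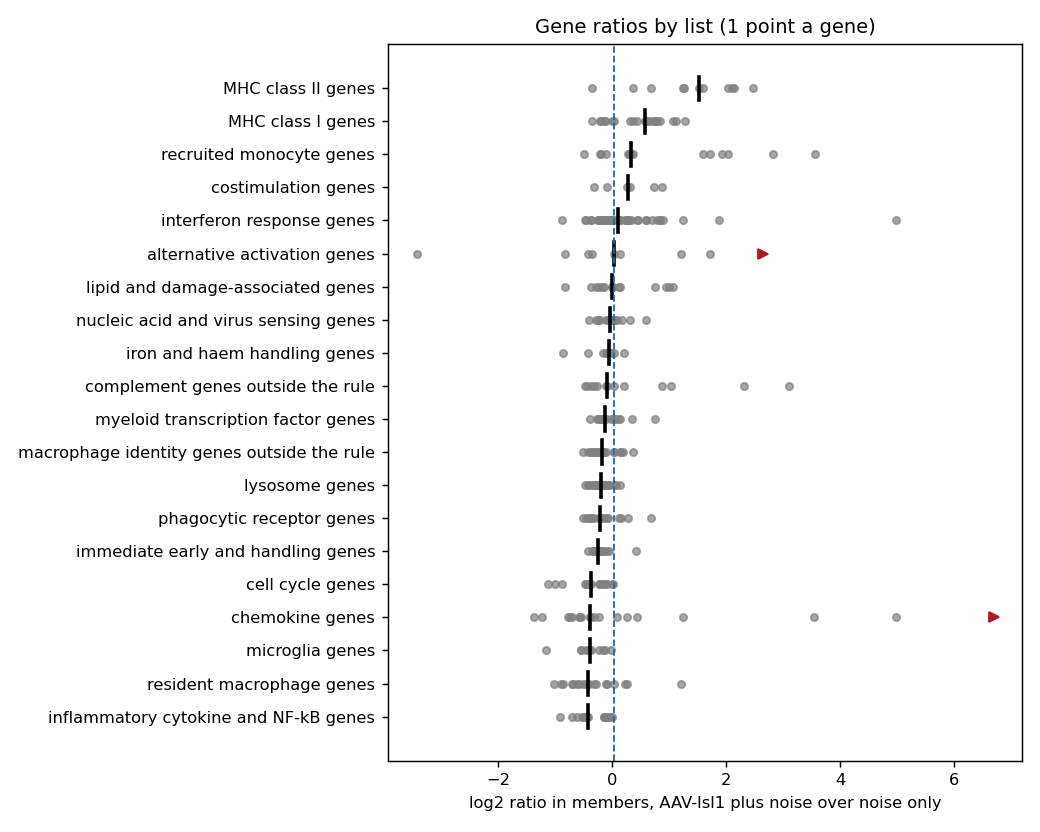
Log2 ratios in members, AAV-Isl1 plus noise over noise only, of the genes of 20 lists with at least 20 UMIs (grey points), with the median of each list (black bar) and of all such genes (dashed line, 0.03). Red triangles are lower bounds for genes with no UMI in noise only. MHC class II genes have the highest median, 1.52, and inflammatory cytokine and NF-kB genes the lowest, -0.43.

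Among the highest ratios in members by interval bound were those of Cxcl13, Ccl8, C3, H2-Eb1, H2-Ab1, H2-Aa, Iigp1, Ciita, Cd74, S100a4 and Gbp4. The lowest belonged to Cxcl1, Tnfsf9, Fcrls, Il1a, Cxcl2, Ccl3, F13a1, Nrf1, Pclaf, Lyve1, Tubb6 and Pf4. Genes picked this way have ratios that counting error pushes away from 1. C3, the central complement component, had 80 UMIs in 56 AAV-Isl1 plus noise members and 7 UMIs in 7 noise-only members (8.61, 3.99 to 22.1), and its ratio in the other kept cells was 5.03 (3.66 to 7.06). The complement genes C4b (2.04) and Cfb (33 and 5 UMIs) were also higher, while the list as a whole stood at 0.957 (0.891 to 1.03). S100a4, a calcium-binding protein gene, had 166 and 33 UMIs (3.79), with 21 in 1 cell. Tnfsf9, which encodes the ligand of 4-1BB, had 43 and 86 UMIs (0.377). Fcrls, a gene of microglia and resident macrophages in mice, had 147 and 247 UMIs (0.448, 0.363 to 0.552) and was found in 106 and 153 members. Pclaf, a replication factor, had 54 and 90 UMIs (0.452), and Nrf1, a transcription factor of mitochondrial genes, 17 and 37 UMIs (0.346). Some of these ratios moved by over 1.5-fold with the cells used. Without members with 3 markers of another class, the log2 ratio was 3.19 for Iigp1 (2.10 over all members), 3.39 for S100a4 (1.92), -2.23 for Tnfsf9 (-1.41) and -0.46 for Nrf1 (-1.53). Without the 5 members of each library with the most UMIs of the gene it was 4.61 for C3 (3.1), 3.32 for Ciita (2.46) and 4.08 for Gbp4 (2.40), a removal that takes most of the 7, 9 and 8 noise-only UMIs of these genes. After thinning it was 4.50 for C3, -0.35 for Pclaf (-1.15) and -2.59 for Nrf1.

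**Figure D4:**
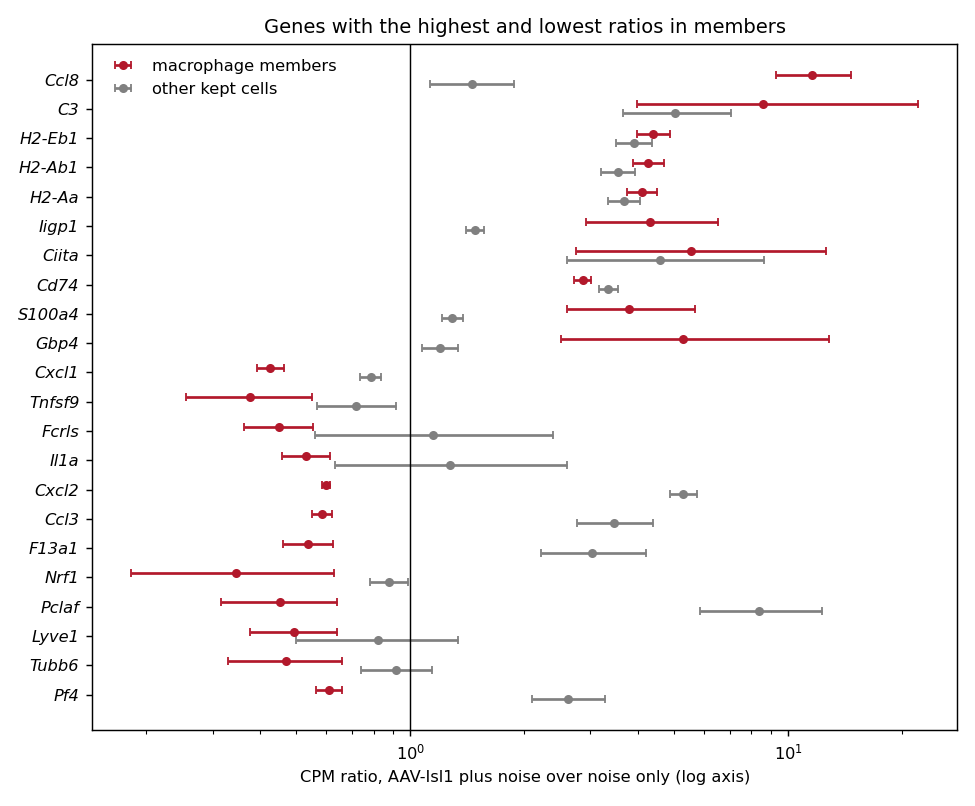
CPM ratios of AAV-Isl1 plus noise over noise only on a log axis for 10 of the genes with the highest and the 12 with the lowest ratios in members, with 95% intervals, in members (red) and in the other kept cells (grey). Cxcl13 is left out because it has no noise-only UMI in members. Cxcl2, Ccl3, F13a1, Pclaf and Pf4 are below 1 in members and above 1 in the other cells, and so are Fcrls and Il1a, whose intervals in the other cells hold 1. The other cells differ in make-up between AAV-Isl1 plus noise and noise only, with 580 and 23 neutrophil-marked cells and 922 and 458 cells with 1 rule marker.

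Genes of long-lived resident macrophages were lower in AAV-Isl1 plus noise. All 7 resident core genes lay below 1: Pf4 had 571 CPM in AAV-Isl1 plus noise and 936 CPM in noise only (0.611, 0.563 to 0.662), and F13a1 had 152 and 283 CPM (0.538, 0.461 to 0.626). Lyve1, the hyaluronan receptor of perivascular macrophages, had 96 UMIs in 58 members and 147 UMIs in 56 members (0.492, 0.376 to 0.640). Cd163, the haemoglobin scavenger receptor, had 56 and 77 UMIs (0.548), Cbr2 138 and 159 UMIs (0.654), Folr2, a folate receptor, 153 and 140 UMIs (0.823, 0.650 to 1.04), and Timd4 only 14 and 15 UMIs. The intervals of Folr2 and Timd4 include 1. Of the 17 resident list genes with 50 UMIs, 1 was at least 1.5-fold higher (Clec10a, a lectin receptor gene, 61 and 20 UMIs) and 6 at least 1.5-fold lower. Among all 7371 genes the shares were 8.8% higher and 3.53% lower. The list's abundant members differed little, as Selenop had 971 and 1048 CPM and Maf 494 and 481 CPM. The rule marker Mrc1, a mannose receptor, was itself lower in AAV-Isl1 plus noise, with 439 and 622 CPM (0.707), which is given as a description since it chose the cells. With members that carry markers of another class left out, Folr2 had a log2 ratio of 0.08, against -0.28 over all members. In the same cells Lyve1 had a log2 ratio of -0.53, and as a mean of per-cell CPM -0.31, against -1.02 in the summed counts, and 16 of the 147 noise-only UMIs lay in 1 cell.

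Genes of recruited monocytes were scarcer and their ratios less certain. The list summed to 690 CPM in AAV-Isl1 plus noise and 570 CPM in noise only (1.21, 1.11 to 1.32). Beside 8.8% and 3.53% of all 7371 genes, 4 of its 11 genes with 50 UMIs were at least 1.5-fold higher and 0 at least 1.5-fold lower. The 4 were S100a4, Plac8, Hp (56 and 6 UMIs) and Lyz1 (47 and 3 UMIs), with 37 of the 56 Hp UMIs in 1 cell and 18 of the 47 Lyz1 UMIs in 1 cell. Other abundant genes of the list lay below 1, with Nr4a1 at 174 and 188 CPM (0.922, 0.783 to 1.09), Msrb1 at 82.4 and 94.1 CPM (0.875) and Fn1, for fibronectin, at 69.3 and 98.3 CPM (0.705, 0.553 to 0.900). Plac8, a monocyte gene, had 65 UMIs in 25 members and 12 UMIs in 5 members (4.08, 2.18 to 8.30), and Ly6c2, the marker of classical monocytes, had 32 UMIs in 16 members and 8 in 4 (3.01, 1.36 to 7.57). Ccr2, their chemokine receptor, had 45 and 27 UMIs (1.26, 0.762 to 2.10) and Ms4a4c 90 and 56 UMIs (1.21), with both intervals holding 1. Chil3 had 26 UMIs in 5 members and 6 in 1 member (3.26), and Vcan 8 UMIs in each. The log2 ratio of Ly6c2 was 1.59 and became 2.71 with a rule of at least 2 markers, that of Ccr2 was 0.33 and became 1.17 without the 5 members of each library with the most Ccr2 UMIs, and that of Chil3 was 1.71 and became -0.013 with at least 4 markers. All of these but Vcan had ratios above 3 in the other kept cells, with Ly6c2 at 12.6 and Plac8 at 5.55. Plac8 was found in 2.75% of thinned members and 0.772% of thinned glia-marked cells in AAV-Isl1 plus noise, and in 0.832% and 0.0290% in noise only. For Ly6c2 these shares were 1.31% and 1.30% in AAV-Isl1 plus noise, and 0.624% and 0.145% in noise only. In AAV-Isl1 plus noise, Ly6c2 and Chil3 had fewer CPM in members (16.7 and 13.6) than in other kept cells (37.3 and 15.7). In noise only they had more in members (5.54 and 4.15) than in other kept cells (2.97 and 1.72). Whether their RNA in members is the members' own was not tested.

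**Figure D5:**
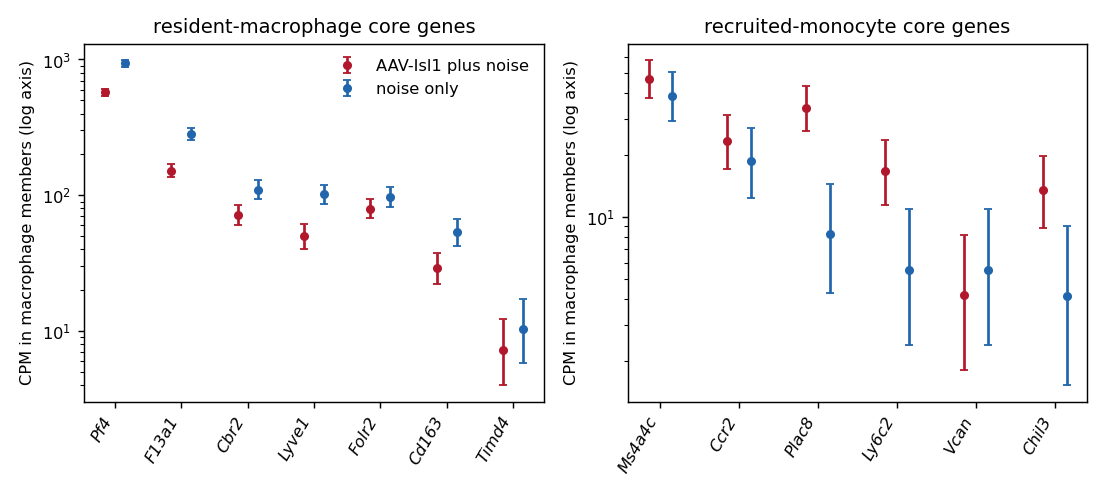
CPM of the 7 resident core genes (left panel) and the 6 recruited core genes (right panel) in members, on log axes, AAV-Isl1 plus noise in red to the left and noise only in blue, with exact Poisson 95% intervals. All 7 resident genes lie lower in AAV-Isl1 plus noise, with overlapping bars for Folr2 and Timd4. Of the recruited genes Plac8 stands farthest apart.

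Cells were placed along these 2 sets. A member was resident-leaning where it held at least 2 UMIs of the 7 resident core genes and more of them than of the 6 recruited core genes, recruited-leaning where the reverse held, and otherwise unassigned. Resident-leaning members were 333 (34.6%, 31.6 to 37.7) in AAV-Isl1 plus noise and 292 (50.3%, 46.1 to 54.4) in noise only. Recruited-leaning members were 37 (3.84%, 2.72 to 5.26) and 12 (2.07%, 1.07 to 3.58), and unassigned ones 593 (61.6%) and 277 (47.7%). The states are ranges of a score and not cell types: 95 and 54 members held exactly 2 resident UMIs and 10 and 4 exactly 2 recruited UMIs. Median depth was 1760 UMIs in resident-leaning, 2053 in recruited-leaning and 1407 in unassigned members of AAV-Isl1 plus noise, and 2366, 2670 and 1691 UMIs in noise only, so depth differs with state and with library. With each cell at 1000 UMIs, 169 of 638 and 168 of 425 members were resident-leaning and 16 and 5 recruited-leaning.

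MHC class II RNA was higher in AAV-Isl1 plus noise within each state. Resident-leaning members had 6465 CPM in AAV-Isl1 plus noise and 2483 CPM in noise only (2.60, 2.47 to 2.74), unassigned members 10271 and 3502 CPM (2.93, 2.80 to 3.08) and recruited-leaning members 10639 and 5387 CPM (1.98, 1.68 to 2.33). H2-Aa in resident-leaning members had 806 UMIs in AAV-Isl1 plus noise and 238 in noise only (3.98, 3.44 to 4.62). Resident-leaning members also carried most of the Ccl8 RNA, 919 of 1263 UMIs in AAV-Isl1 plus noise and 75 of 82 in noise only (14.4, 11.4 to 18.5), and 239 of the 411 Cxcl13 UMIs. The difference between states in these ratios was not tested.

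In summed counts of a library, recruited-leaning members had more class II RNA than resident-leaning ones, 1.65-fold (1.54 to 1.76) in AAV-Isl1 plus noise and 2.17-fold (1.85 to 2.53) in noise only. In noise only this rests on 12 cells, 3 of which held 130 of the 180 class II UMIs, and 5 held 165. Without the 5 members of each state with the most class II UMIs, the log2 ratio there turned to -1.29. With thinning, which left 5 recruited-leaning cells in noise only, it was -0.77, so the direction in noise only is not settled. In AAV-Isl1 plus noise, 3 of 37 cells held 26.4% of the class II UMIs. Unassigned members there had 10271 CPM, close to the 10639 CPM of recruited-leaning ones, so the higher level was not particular to the recruited-leaning state. In noise only unassigned members had 3502 CPM, between the other 2 states. Outside both core sets, the genes highest in recruited-leaning over resident-leaning members in both libraries were Wfdc21, Camp, Ngp, Lcn2, S100a9, S100a8, Ltf and Anxa1, most of which are granule and calcium-binding protein genes of neutrophils. Of the S100a8 and S100a9 UMIs in recruited-leaning members, 3 cells held 2831 of 2850 in AAV-Isl1 plus noise and 1 cell held all 1351 in noise only, while 28 of 37 and 11 of 12 cells had none. Without members that hold 3 neutrophil markers 33 and 11 recruited-leaning members remained. Of the 8 genes lowest in recruited-leaning members, all had 0 UMIs there in both libraries, among them Fcna, a ficolin gene of resident macrophages, with 114 and 125 UMIs in resident-leaning members.

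Isl1 itself was scarce in macrophages. It had 111 UMIs or 57.9 CPM in 43 members of AAV-Isl1 plus noise and 32 UMIs or 22.2 CPM in 15 members of noise only (2.61, 1.75 to 4.00), with 29 of the 111 in 1 cell, beside 118 and 83.4 CPM in the other kept cells (1.41). Once members with 3 markers of another class were left out, the log2 ratio of Isl1 was -1.13, and it was 0.30 without the top Scrublet scores and 2.74 after thinning, beside 1.38 over all members. The levels in members lay below those of the other cells in both libraries, and whether vector transcripts are counted under the annotated gene is not given in the sources used here.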

How the data were processed

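Raw UMI counts of 32285 genes in each barcode were deposited as whole numbers. Per the submitters' processing notes, the tools were Seurat 3.2.2, Cell Ranger 5.0 and STAR, and the build was mm10 (GRCm38), and Cell Ranger 5.0.1 stands in the header of the matrices. Barcodes had been filtered before deposit, since the lowest held 500 UMIs. Here barcodes with 300 or more genes and no more than 20% of UMIs from mitochondrial genes were kept. UMIs of members were summed per library and divided by all their UMIs and multiplied by 1000000 (CPM). Intervals are 95% ones, by the exact conditional binomial method for ratios, exact Poisson for CPM and Clopper-Pearson for shares. UMIs and cells enter them as independent, which covers only counting error. A 0 was taken to allow up to 3 counts. No doublets were removed in the values reported. As an alternative, the 6% of cells with the highest Scrublet scores in each library were removed, 1302 in AAV-Isl1 plus noise and 1196 in noise only. Code was tested on simulated data. Python 3.11.15, numpy 2.4.6, scipy 1.17.1 and scanpy 1.11.5 were used.

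Members, the 22 gene lists, markers and alternatives were chosen with earlier results of these data known. Of the listed symbols 3 matched no row and were not analysed here. Named genes were the 7 rule markers, Isl1, the core and MHC class II genes, the 4 most abundant genes of each list, 8 genes each way between states, and the 12 highest and 12 lowest ratios by the interval bound nearest 1. Those had at least 50 UMIs in members, at least 20 CPM, an interval without 1, a CPM in members at least that of the other cells, and at most 20% of UMIs in 1 member. Other list genes given in the text were chosen after their values were seen. Some genes that the rule named are not reported here. Glia-marked cells held at least 5 glial markers and no rule marker, so their shares may understate stray macrophage RNA.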

Additional observations from a re-analysis of the deposited data

How the results depend on the processing

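No paired analysis was possible because each group is 1 library. Pooling leaves no spread between animals, so only counting error and the alternatives below bound the values. The causes of the differences were not tested. Summed log2 ratios were 1.59 for MHC class II, 0.44 for class I, 0.06 for interferon response, -0.34 for resident and 0.27 for recruited genes. Without members with 3 markers of another class, they were 1.73 for class II, 0.58 for class I and 0.53 for recruited genes. Without the top Scrublet scores they were 1.67 for class II, 0.50 for class I, 0.11 for interferon response and -0.29 for resident genes. With at least 4 markers they were 0.51 for class I, 0.11 for interferon response and -0.25 for resident genes, and with at least 2 markers 1.49 for class II and 0.024 for interferon response. Thinning gave 0.51 for class I, 0.23 for interferon response and a share ratio of 1.29, means of per-cell CPM gave 1.43 for class II, 0.13 for interferon response and -0.28 for resident genes, and leaving out the 5 members of each library with the most class II UMIs gave 1.69 for class II. Class II kept its direction in every alternative run, from 1.43 to 1.73. Genes past 1.5-fold numbered 649 higher and 260 lower, against 372 higher without the top Scrublet scores, 152 and 163 with thinning, 214 and 169 without members with another class, 1386 and 653 with a minimum of 20 UMIs, 109 and 44 with 200, and 189 and 32 past 2-fold. The log2 ratio of class II RNA between recruited-leaning and resident-leaning members was 0.72 in AAV-Isl1 plus noise and 1.12 in noise only. In AAV-Isl1 plus noise it was 1.72 with thinning, 1.17 without members with another class, 0.98 as a per-cell mean, 0.31 without the 5 members of each state with the most class II UMIs, 0.61 with 1 core UMI and 0.89 without neutrophil-marked members, a removal chosen after seeing the data, like that of erythroid-marked members. In noise only it was -0.77 with thinning and -1.29 without those 5 members of each state, which takes 5 of only 12 recruited-leaning cells, and 0.73 with 500 genes and 10% mitochondrial UMIs, 0.79 with 4 markers, 0.61 without members with another class, 1.43 as a per-cell mean and 0.70 with 1 core UMI. Some log2 ratios whose interval left out 0 changed sign. With 4 markers they were C1qb (0.034) and Chil3 (-0.013), without the top Scrublet scores Ftl1 (0.0053), with thinning C1qb (0.019), Csf1r (0.083), Fcer1g (0.055), Tyrobp (0.036), Itgam (0.011) and Mki67 (0.41), and as a per-cell mean Fth1 (0.017). Without members with another class they were iron and haem genes together (0.025), C1qb (0.0092), Isl1 (-1.13), Fth1 (0.020), Ftl1 (0.063), Id3 (0.36), Hmgb2 (0.046), Fos (0.081) and Jun (0.052). Of 1472 values of single named genes under the alternatives, 1293 stayed within the interval of the reported value. The sign differed in 67, of which 18 are those above and 49 belong to genes whose interval already held both signs, such as H2-DMb2 (-0.59 with thinning, against 0.68) and Vcan (0.41, against -0.41).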

Other observations

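Lists not described so far lay near or below 1 in members. Cell cycle genes summed to 1477 CPM in AAV-Isl1 plus noise and 1817 CPM in noise only (0.813, 0.771 to 0.858). Of 15 measured, 0 were at least 1.5-fold higher and 2 at least 1.5-fold lower, beside 8.8% and 3.53% of all 7371 genes. Cells with at least 2 of 6 cycling genes were nonetheless 7.06% of thinned members in AAV-Isl1 plus noise (5.35 to 9.11) and 6.86% in noise only (4.77 to 9.50), beside 0.459% and 0.0579% of glia-marked cells. Microglia genes, which cochlear macrophages share in part with those of the brain, had all 10 measured ratios below 1, with Siglech at 143 and 157 UMIs (0.686) and P2ry12 at 164 and 135 UMIs (0.915). At least 2 of 6 such genes were found in 7.58% of thinned members of AAV-Isl1 plus noise (5.81 to 9.69) and 11.2% of noise-only ones (8.55 to 14.4).

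Lysosome genes summed to 16610 CPM in AAV-Isl1 plus noise and 19009 CPM in noise only (0.874), and phagocytic receptor genes to 3486 and 4049 CPM (0.861). The 20 macrophage identity genes outside the rule had a similar summed ratio, 0.877 (0.863 to 0.892), with 14 of them below 1. The 7 rule markers, given as a description, ranged from 0.707 (Mrc1) to 0.943 (C1qb). Ratios of this size are therefore not particular to lysosome or phagocytic genes. Among lipid and damage-associated genes, Apoe, the lipid carrier, was the most abundant with 20048 and 22181 CPM (0.904), and Lgals3 had 290 and 105 UMIs (2.08, 1.66 to 2.63). Fabp5, a fatty acid binding protein gene, had 391 and 148 UMIs (1.99), of which 111 lay in 1 AAV-Isl1 plus noise cell. Arg1 had 25 UMIs in 11 AAV-Isl1 plus noise members and 0 in noise only, and Retnla 8 UMIs and 65 UMIs, with 28 of the 65 in 1 noise-only cell. Nos2 had 0 UMIs in members of both libraries. Growth factors of macrophages were scarce in members, with 28 and 29 UMIs of Csf1 and 14 and 10 UMIs of Il34, and were counted mainly in other cells, with 439 and 415 UMIs of Csf1 and 603 and 786 UMIs of Il34.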
